A study of Mus musculus with 40 samples.

Results

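A dividing cell copies its DNA and then separates the copies, and the 38 genes described here encode proteins of those steps. They were chosen by name from known roles, 17 for DNA replication and 21 for mitosis. All 38 were found by symbol among the 22552 genes of a deposited expression table of the mouse mammary gland.

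RNA of whole mammary tissue was sequenced in 31 libraries that fall into 12 groups. For each gene the deposited table gives the authors' pooled value for a group in FPKM. By definition this is a count of fragments divided by transcript length and by the total mapped, but the authors' scaling of the groups is not given. The study addressed the loss, in the resting and the pregnant gland, of EZH2 and of EZH1, either of which can be the methyltransferase of a Polycomb complex that marks histone H3. With a single pooled value for each group there is no SD, n or p-value for any gene, differences cannot be set against the spread between mice, and the sequencing depth is unknown. All groups are labelled as outbred mice.

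On day 13 (p13) and on day 18 (p18) of pregnancy there were 4 groups. The Ezh2 KO mice carry floxed Ezh2 alleles and a Cre transgene driven by the mouse mammary tumour virus promoter (MMTV-Cre), so that Ezh2 is deleted in cells that express Cre. Which cells of the gland express Cre was not tested. The Ezh1 KO mice lack both Ezh1 alleles, and the labels do not say whether they also carry Cre. In the Ezh1 het Ezh2 KO mice 1 Ezh1 allele is lost together with the same deletion of Ezh2 by Cre. The controls are mice of the MMTV-Cre line itself, so the transgene is shared by controls and Ezh2-deleted groups. Each of these groups held 3 libraries except the p18 Ezh1 KO group, which held 2. Virgin glands came from Ezh2 KO and control mice of 12 weeks at oestrus, with and without prolactin, in 4 groups of 2 libraries. The gland without prolactin was removed under anaesthesia before the hormone was given at 5 µg per g, and the contralateral gland of that mouse was taken 2 h after the injection. Time, anaesthesia and surgery thus cannot be told apart from prolactin.

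The mammary gland is mostly fat and stroma with a sparse ductal tree in the virgin, and its epithelium multiplies during pregnancy to form the alveoli that later secrete milk. Before S phase, CDC6 and CDT1 load the MCM helicase onto origins. CDC45 and the GINS complex then convert it into the active form, PCNA clamps the polymerases to DNA, and ribonucleotide reductase and thymidylate synthase supply deoxynucleotides, with cyclin E bound to CDK2 at the entry to S phase. In mitosis, cyclins A and B with CDK1, the Aurora kinases and PLK1 drive entry and spindle assembly, and the checkpoint kinases BUB1, BUBR1 and TTK hold back CDC20 until chromosomes are attached. Replication genes are typically controlled by E2F factors in late G1 and S phase. Mitotic genes are typically controlled in G2 phase through a cell cycle genes homology region (CHR), read by the DREAM and MuvB complexes, together with CCAAT boxes bound by NF-Y.

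The promoters are shown because both classes carry letters of these control elements to different degrees. RefSeq promoter windows on GRCm38.p6, from 250 bases before to 50 bases after the annotated start, were matched by symbol for 30 of the 38 genes, of which 13 are replication and 17 are mitosis genes. The expression table uses another build, mm9, and was joined to these windows by symbol only. The letters searched on both strands were the E2F motifs TTTCCCGC and TTTCGCGC as well as TTTGCCGC and TTTGGCGC, the CHR motifs TTTGAA and TTCGAA, and the box CCAAT. Matches of E2F motifs on opposite strands can overlap, as they do in Mcm6, and a match found on both strands at 1 position was counted as 1. Members were counted by gene and the share of all promoters by window. Only Mcm7 has 2 windows, and it was counted if either matched. The E2F matches of Mcm7, at -165 and 17 bases from the start, lie in the window that is printed in part below. The printed stretch holds only the match at 17, and the other window holds none. An E2F motif was present in 6 of the 13 replication genes, in 1 of the 17 mitosis genes and in 2.26% of all 32851 windows of this length. A CHR motif was present in 13 of the 17 mitosis genes, in 3 of the 13 replication genes and in 19.2% of all windows. Within 50 bases of the start, a CHR motif was found in 12 of the 17 mitosis genes, 1 of the 13 replication genes and 5.31% of all windows. CCAAT on either strand was common in each set, at 15 of 17 mitosis genes, 9 of 13 replication genes and 37.4% of all windows. A CHR motif together with CCAAT occurred in 13 of 17 mitosis genes, 3 of 13 replication genes and 7.52% of all windows. No window was matched for Aurkb, Ccna2, Ccne2, Gins1, Gins2, Kif20a, Mcm4 and Tpx2. These matches are a description of the letters, not of binding.

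Of each class 4 promoters are printed, from 150 bases before to 30 bases after the start, 5′ to 3′ on the strand of the gene. Capitals mark E2F letters in the replication genes Mcm3 (chr1:20820283-20820462, minus strand), Mcm6 (chr1:128359676-128359855, minus strand), Mcm7 (chr5:138171854-138172033, minus strand) and Cdc6 (chr11:98908001-98908180, plus strand).
Mcm3: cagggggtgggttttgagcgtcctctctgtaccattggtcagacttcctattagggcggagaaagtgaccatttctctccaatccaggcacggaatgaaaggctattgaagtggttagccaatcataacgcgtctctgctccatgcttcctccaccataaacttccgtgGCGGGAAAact
Mcm6: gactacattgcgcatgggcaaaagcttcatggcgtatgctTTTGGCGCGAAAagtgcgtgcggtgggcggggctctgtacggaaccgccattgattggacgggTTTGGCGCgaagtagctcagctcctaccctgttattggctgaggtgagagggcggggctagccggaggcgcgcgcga
Mcm7: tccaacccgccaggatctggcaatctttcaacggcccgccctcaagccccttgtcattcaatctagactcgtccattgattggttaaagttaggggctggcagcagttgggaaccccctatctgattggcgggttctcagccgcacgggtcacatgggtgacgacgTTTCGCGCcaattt
Cdc6: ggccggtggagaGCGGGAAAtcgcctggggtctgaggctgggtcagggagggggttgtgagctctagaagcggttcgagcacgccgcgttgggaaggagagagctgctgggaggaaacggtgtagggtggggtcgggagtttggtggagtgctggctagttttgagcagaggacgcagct

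Capitals mark CHR and CCAAT letters on either strand in the mitosis genes Ccnb2 (chr9:70421525-70421704, minus strand), Cdc20 (chr4:118437314-118437493, minus strand) and Cenpf (chr1:189688057-189688236, minus strand), with E2F letters as well in Cdk1 (chr10:69352883-69353062, minus strand).
Ccnb2: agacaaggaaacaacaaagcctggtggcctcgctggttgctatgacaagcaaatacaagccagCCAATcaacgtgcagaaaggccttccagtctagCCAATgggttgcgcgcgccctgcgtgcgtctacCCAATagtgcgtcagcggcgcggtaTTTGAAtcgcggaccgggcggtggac
Cdc20: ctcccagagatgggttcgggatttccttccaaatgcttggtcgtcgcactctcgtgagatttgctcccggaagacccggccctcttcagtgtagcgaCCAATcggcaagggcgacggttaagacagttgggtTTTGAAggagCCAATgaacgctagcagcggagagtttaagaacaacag
Cenpf: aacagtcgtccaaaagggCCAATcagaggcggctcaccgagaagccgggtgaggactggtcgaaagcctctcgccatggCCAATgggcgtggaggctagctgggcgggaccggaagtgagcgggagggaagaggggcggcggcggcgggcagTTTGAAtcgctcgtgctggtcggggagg
Cdk1: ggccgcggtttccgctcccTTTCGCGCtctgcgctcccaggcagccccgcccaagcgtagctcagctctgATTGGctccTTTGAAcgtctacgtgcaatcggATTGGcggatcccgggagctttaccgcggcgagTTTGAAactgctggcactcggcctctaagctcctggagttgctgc

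Mcm6 holds 3 E2F matches, a pair of them overlapping. In Ccnb2, Cdc20 and Cenpf a CHR stands near the start with CCAAT boxes upstream of it or close by, and Cdk1, the kinase partner of the mitotic cyclins, holds 2 CHR and 2 CCAAT matches together with an E2F match.

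**Figure D1:**
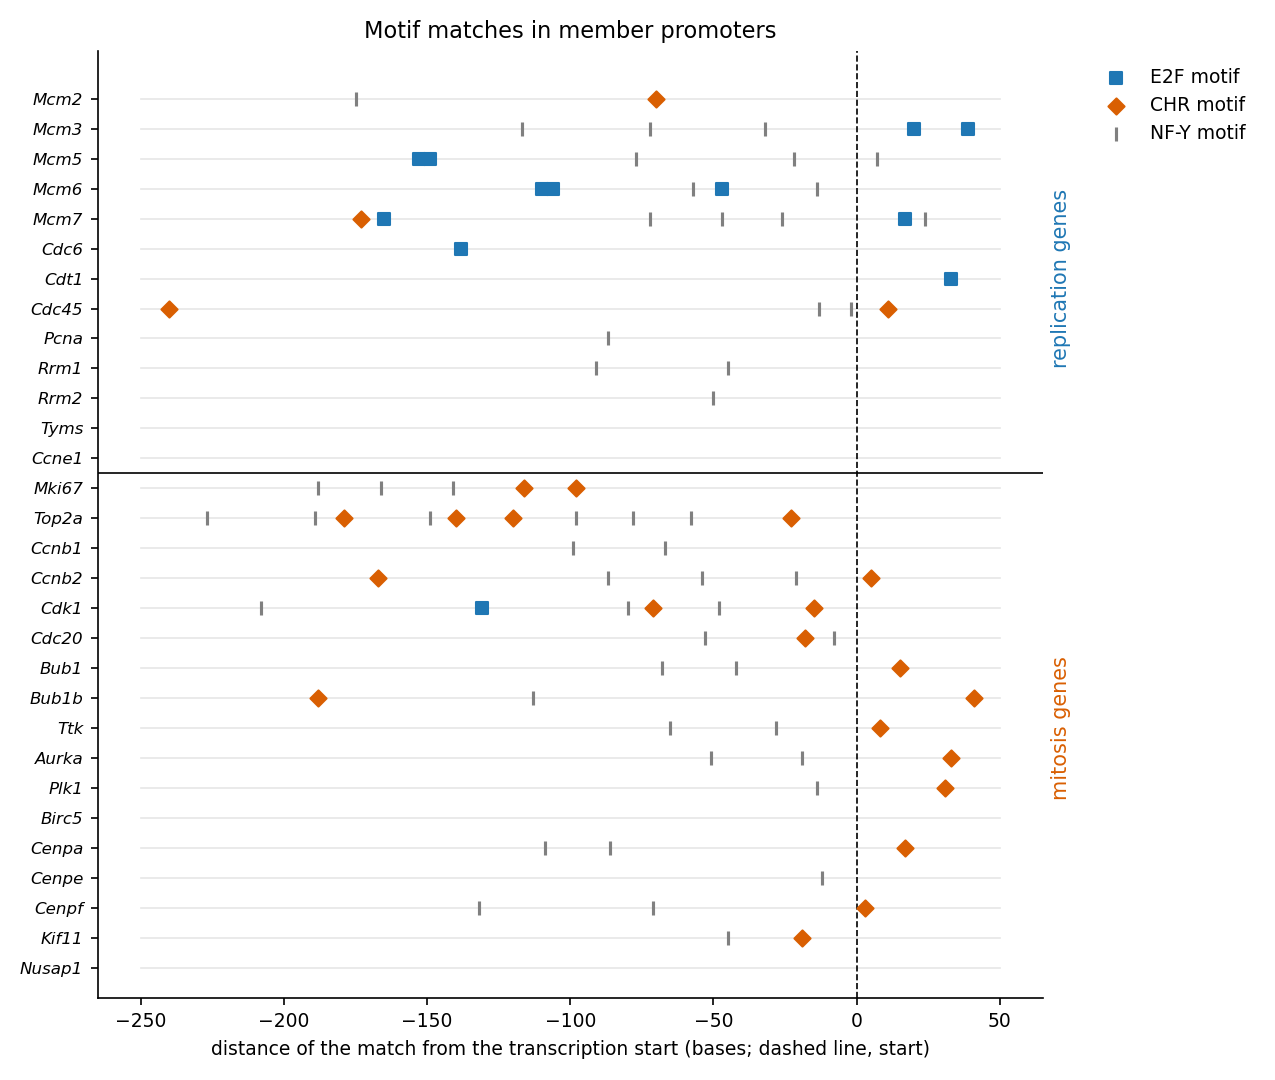
Positions of motif matches in the RefSeq promoter windows of 13 replication and 17 mitosis genes, in bases from the annotated start, with the gene names down the side and the motif given by symbol and colour. CHR matches gather near the start in the mitosis genes, 12 of 17 within 50 bases, while E2F matches are mostly in the replication genes, 6 of 13.

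Over all genes, FPKM summed to between 581531 and 1151970 in a group, with 0.0707% to 47.4% of that from milk protein genes. The luminal epithelial markers Epcam and Krt18 were present in every group, at 67.1 to 320 and 220 to 479 FPKM. Ezh1 stood at 1.06 FPKM in the p13 Ezh1 KO group, against 14.7 FPKM in the p13 control, and at 0.627 FPKM in the p18 Ezh1 KO group, against 7.37 FPKM in the p18 control. Ezh2, whose floxed exons are not given in the sources used here, had 13.7 FPKM in the p13 Ezh2 KO group, against 12.9 FPKM in the p13 control, and 6.41 FPKM in the p18 Ezh2 KO group, against 10.0 FPKM in the p18 control. A value over the whole gene in whole tissue does not check the Ezh2 label. In bulk tissue, fewer cells of a type and less RNA per cell cannot be told apart, and this holds for every difference below.

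All 38 genes reached at least 1 FPKM in at least 1 group and none was listed at 0. The lowest value was 0.125 FPKM, of the checkpoint kinase gene Bub1 in the virgin control without prolactin, and the highest was 143 FPKM, of Pcna in the p13 Ezh2 KO group. As scaled by the authors, 33 of the 38 genes had their highest level in the p13 Ezh2 KO group, among them all 21 mitosis genes. The other 5 are replication genes: Gins2 and Rrm2 were highest in the p13 Ezh1 KO group, Ccne1 in the p13 Ezh1 het Ezh2 KO group, Ccne2 in the p13 control and Tyms in Ezh1 het Ezh2 KO at p18. At the other end, 27 of the 38 were lowest in the virgin control without prolactin, 9 in the virgin Ezh2 KO group with prolactin, and Gins1 and Tyms in the virgin control with prolactin. The shares of all genes highest or lowest in these groups were not counted. The order also depends on the scaling. With groups rescaled to a common mean of luminal markers, 36 of the 38 genes were lower in the p13 Ezh2 KO group than in the p13 control. The mitosis genes ranged more widely than the replication genes. The ratio of a gene's highest to its lowest FPKM had a median of 39.8 over the mitosis genes, between 11.4 for Aurka and 61.1 for Ttk. Over the replication genes it had a median of 5.03, between 2.44 for Pcna and 23.2 for Rrm2.

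In FPKM, which are per length, the replication class started from a higher level. The class median in the virgin control without prolactin was 3.13 FPKM for replication and 0.697 FPKM for mitosis genes. In the p13 control the medians were 19.0 and 16.3 FPKM, and in the p18 control 9.50 and 11.5 FPKM, again replication before mitosis. The class medians thus lay apart in the virgin and close together in pregnancy. Pcna, the polymerase clamp that also serves DNA repair, was the most abundant gene of the set in each of the 12 groups, at 138 FPKM in the p13 control and 58.6 FPKM in the virgin control without prolactin. The MCM genes lay between 1.77 FPKM, of Mcm5 in the virgin control without prolactin, and 53.6 FPKM, of Mcm7 in the p13 Ezh2 KO group. Cdc6 and Ccne2 stayed below 3 FPKM in all 12 groups.

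Members of either class that the results below turn on are given here in all 12 groups. Top2a, the topoisomerase that untangles sister chromosomes, had 4.51 FPKM in Ezh2 KO and 0.989 FPKM in control virgin glands without prolactin, and 1.24 FPKM in Ezh2 KO and 2.27 FPKM in control virgin glands with prolactin. At p13 Top2a stood at 39.3 FPKM in Ezh2 KO, 32.5 FPKM in Ezh1 KO, 24.0 FPKM in Ezh1 het Ezh2 KO and 29.2 FPKM in control, and at p18 at 14.1 FPKM in Ezh2 KO, 13.8 FPKM in Ezh1 KO, 17.7 FPKM in Ezh1 het Ezh2 KO and 15.9 FPKM in control. Its 8 pregnancy values thus all lay above its 4 virgin values, with the p13 values the highest. Birc5, the survivin subunit of the chromosomal passenger complex, had 5.97 FPKM in Ezh2 KO and 2.16 FPKM in control virgin glands without prolactin, and 2.12 FPKM in Ezh2 KO and 4.71 FPKM in control virgin glands with prolactin. At p13 Birc5 stood at 67.9 FPKM in Ezh2 KO, 58.0 FPKM in Ezh1 KO, 42.3 FPKM in Ezh1 het Ezh2 KO and 52.3 FPKM in control, and at p18 at 40.3 FPKM in Ezh2 KO, 47.9 FPKM in Ezh1 KO, 63.7 FPKM in Ezh1 het Ezh2 KO and 32.5 FPKM in control, so that only in Ezh1 het Ezh2 KO was it higher at p18 than at p13. Mcm6, a helicase subunit, had 12.0 FPKM in Ezh2 KO and 3.55 FPKM in control virgin glands without prolactin, and 5.44 FPKM in Ezh2 KO and 5.03 FPKM in control virgin glands with prolactin. Mcm6 at p13 stood at 48.3 FPKM in Ezh2 KO, 45.0 FPKM in Ezh1 KO, 37.9 FPKM in Ezh1 het Ezh2 KO and 46.1 FPKM in control, and at p18 at 23.3 FPKM in Ezh2 KO, 23.3 FPKM in Ezh1 KO, 31.7 FPKM in Ezh1 het Ezh2 KO and 24.4 FPKM in control. The spread between genotypes at p13 was small for Mcm6 beside the step from the virgin gland. Pcna had 72.0 FPKM in Ezh2 KO and 58.6 FPKM in control virgin glands without prolactin, and 65.3 FPKM in Ezh2 KO and 79.3 FPKM in control virgin glands with prolactin. At p13 it stood at 143 FPKM in Ezh2 KO, 129 FPKM in Ezh1 KO, 111 FPKM in Ezh1 het Ezh2 KO and 138 FPKM in control, and at p18 at 92.0 FPKM in Ezh2 KO, 83.9 FPKM in Ezh1 KO, 111 FPKM in Ezh1 het Ezh2 KO and 72.7 FPKM in control, and its p18 control value lay below its virgin control value with prolactin. As scaled by the authors, all 8 pregnancy groups lay above all 4 virgin groups for 35 of the 38 genes, against 11.7% of all genes, namely all 21 mitosis genes and 14 of 17 replication genes. The exceptions were Mcm3, Cdc45 and Pcna.

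**Figure D2:**
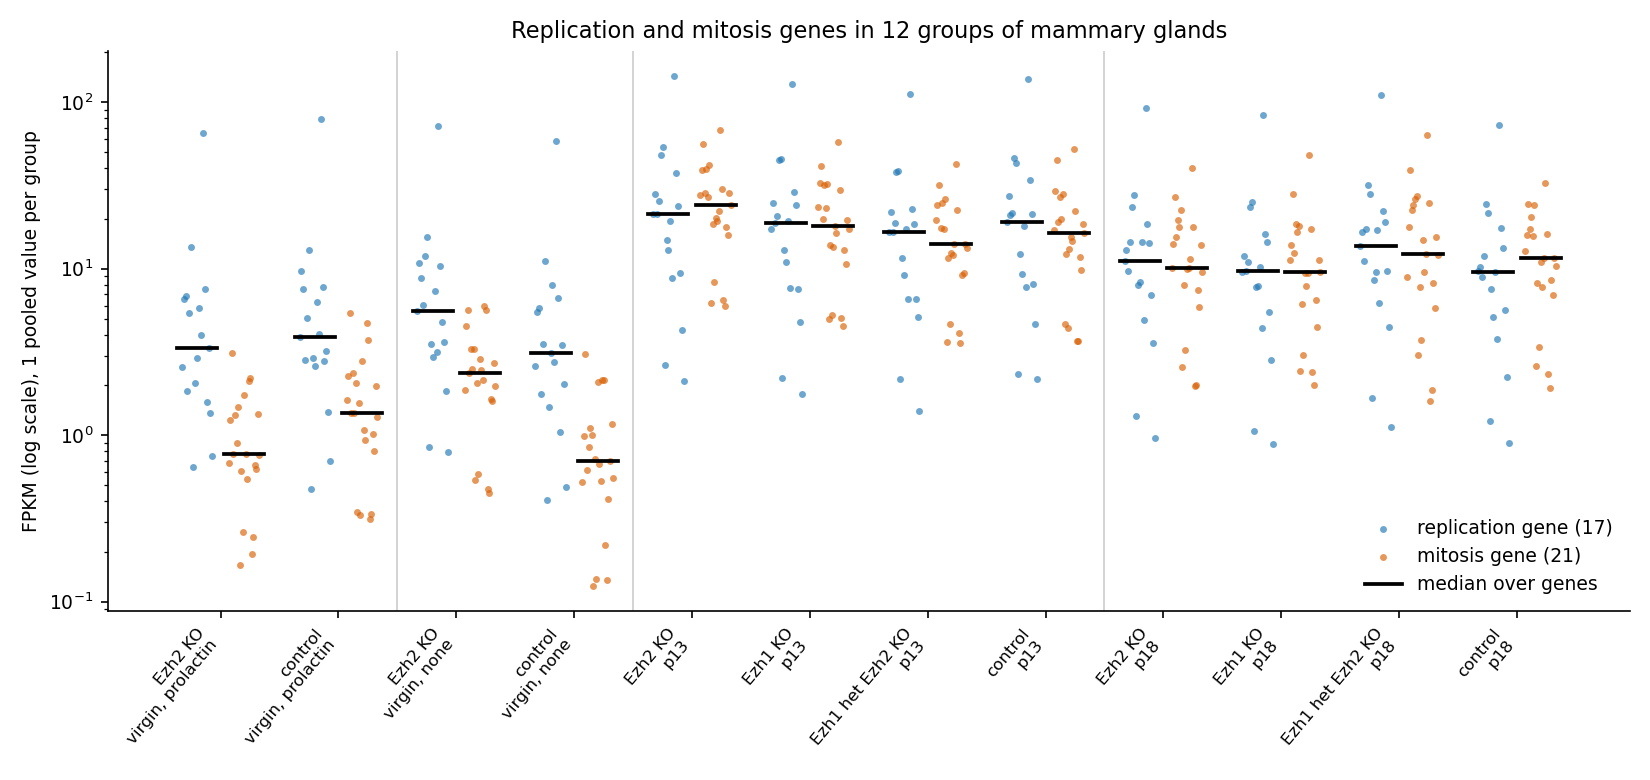
FPKM on a log axis of the 17 replication and 21 mitosis genes in each of the 12 groups, with 1 point per gene and a bar at the class median. The mitosis median is 24.1 FPKM in Ezh2 KO at p13 and 0.697 FPKM in the virgin control without prolactin, and the replication median 21.3 FPKM in Ezh2 KO at p13 and 3.13 FPKM in that virgin control.

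The comparison of pregnancy with the virgin gland asks how the division programme differs when the alveoli are being built. At p13 every one of the 38 genes stood above its virgin level without prolactin in control glands and, as scaled by the authors, in Ezh2 KO glands, where the replication median turned to -0.06 with groups rescaled to a common mean of luminal markers. The mitosis genes differed by more than the replication genes in both genotypes. Differences are given on the scale of log2(FPKM + 1), where genes of low level appear closer together than they are, and ratios are of FPKM itself. In control glands, 37 of the 38 genes were higher at p13 by at least 1 log2 unit, as were 9.12% of the 14273 genes that reached 1 FPKM in any group. The remaining gene, Ccne1, which encodes cyclin E1, had 4.65 FPKM in the p13 control, against 2.04 FPKM in the virgin control. The median difference was 1.69 for replication genes, a median FPKM ratio of 4.47, and 3.31 for mitosis genes, a median ratio of 27.1, while over all genes it was 0.17. The mitosis ratios rest on low virgin values, with a class median of 0.697 FPKM and 0.125 FPKM for Bub1. With a pseudocount of 5 in place of 1 the medians were 1.26 for replication and 1.93 for mitosis genes. With a pseudocount of 0.1 they were 1.96 and 4.35. All 12 skeletal muscle markers were higher in the p13 control, with a sum of 10691 FPKM at p13, against 117 FPKM in the virgin control. All 10 basal and myoepithelial markers were higher at p13, with 1208 FPKM at p13, against 216 FPKM in the virgin, and all 5 erythroid markers, with 2063 FPKM at p13, against 703 FPKM in the virgin. None of these markers was listed at 0 in either control group, and their part in the result was not tested. In Ezh2 KO glands, 34 of the 38 genes were higher at p13 by at least 1 log2 unit, against 11% of all genes. The 4 genes short of it there were Ccne1, Ccne2, Cdc6 and Pcna. The medians in Ezh2 KO glands were 1.30 for replication genes, a median ratio of 3.10, and 2.87 for mitosis genes, a median ratio of 10.8. Under the luminal scaling the mitosis median of Ezh2 KO was 1.45. Luminal markers summed to 2756 FPKM in the p13 Ezh2 KO group, against 924 FPKM in the virgin Ezh2 KO group, and lymphocyte markers to 25.9 FPKM, against 370 FPKM in the same groups, and the part of these cells in the result was not tested.

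By role, Birc5 stood furthest apart in controls on the log2 scale, with 52.3 FPKM at p13 against 2.16 FPKM in the virgin, a difference of 4.08. Cyclins A2 and B2 followed the same course. Ccna2 had 44.8 FPKM in the p13 control, against 3.08 FPKM in the virgin control, and Ccnb2 had 26.9 FPKM at p13, against 0.851 FPKM in the virgin. The checkpoint kinase gene Ttk, also called Mps1, had 4.38 FPKM in the p13 control, against 0.137 FPKM in the virgin control, a ratio of 32.1. Mki67, which encodes the Ki-67 proliferation antigen, had 17.1 FPKM at p13, against 0.527 FPKM in the virgin. Among the mitosis genes, Aurka, the centrosomal Aurora kinase, differed little for its class, with 13.0 FPKM in the p13 control, against 2.08 FPKM in the virgin control. The remaining mitosis genes are given by their ratio of p13 to virgin in controls. For the kinase of mitotic entry, Cdk1, it was 18.1 and for its cyclin partner Ccnb1 30.8. For the mitotic kinases it was 23.2 for Aurkb and 27.8 for Plk1. Among the checkpoint genes it was 37.2 for Bub1, 17.0 for Bub1b, which encodes BUBR1, and 28.1 for their target Cdc20. At the centromere it was 10.4 for the histone variant gene Cenpa, 17.0 for the kinesin gene Cenpe and 27.1 for Cenpf. Among spindle genes it was 28.5 for Kif11, 14.1 for Kif20a, 15.9 for Nusap1 and 29.7 for Tpx2, the activator of Aurora A.

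Among the replication genes, those of S phase nucleotide supply and the helicase were spread widely. Rrm2, the cell cycle regulated subunit of ribonucleotide reductase, had 21.4 FPKM in the p13 control, against 1.04 FPKM in the virgin control, a ratio of 20.6 that lies within the range of the mitosis genes. Its partner Rrm1 had 34.1 FPKM at p13, against 6.63 FPKM in the virgin, a ratio of 5.15. The MCM genes did not move as a block in the control: the ratio of p13 to virgin was 13.0 for Mcm6, 12.1 for Mcm5 and 7.35 for Mcm2, but 5.03 for Mcm3, 3.89 for Mcm7 and 3.62 for Mcm4. These proteins form 1 hexamer. The loading factors Cdt1 and Cdc6 had ratios of 8.32 and 5.71. Gins1 and Gins2, subunits of the GINS complex, had ratios of 2.95 and 2.25, Cdc45 of 2.82, the thymidylate synthase gene Tyms of 2.33 and Pcna of 2.35.

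**Figure D3:**
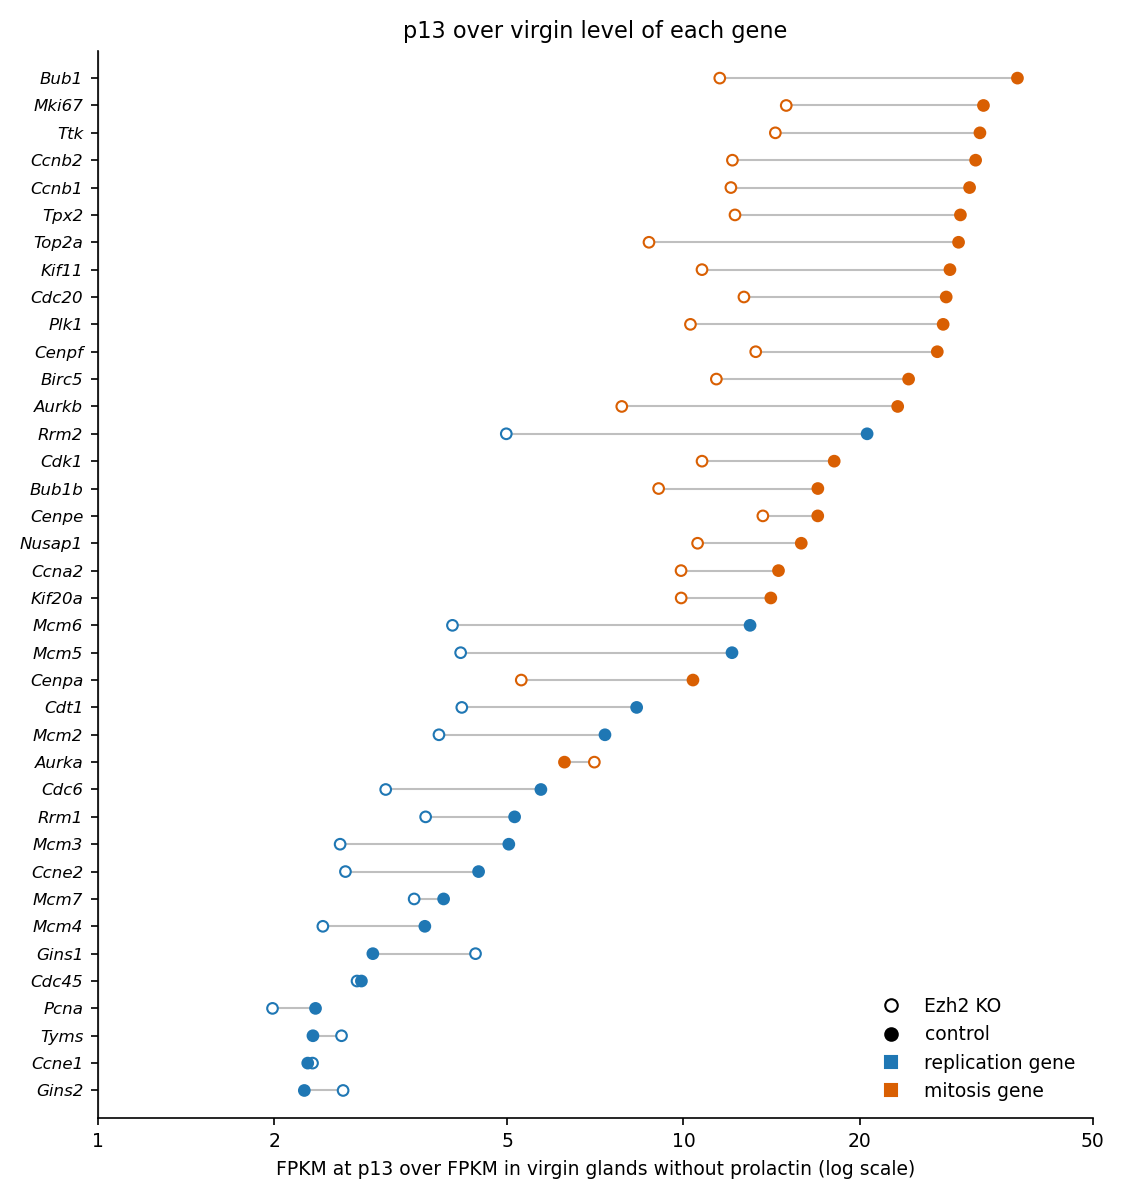
Ratio of p13 to virgin FPKM (log axis, glands without prolactin) for each of the 38 genes, with open points for Ezh2 KO and filled points for control. Mitosis genes have a median ratio of 10.8 in Ezh2 KO and 27.1 in control glands, and replication genes 3.10 and 4.47.

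The wider lists differed in the same order. Of 71 other mitosis genes, 64 were higher in the p13 control than in the virgin control by at least 1 log2 unit, against 9.12% of all genes, with a median of 2.37. Of 50 other replication genes, 31 were, with a median of 1.24, and of 27 regulators of G1 phase and of E2F and RB, 11 were, with a median of 0.77. Pbk, a mitotic kinase gene, had 20.8 FPKM in the p13 control, against 0.637 FPKM in the virgin control, and Cdca3 had 29.8 FPKM at p13, against 1.27 FPKM in the virgin. Uhrf1, which keeps DNA methylation through replication, had 24.0 FPKM at p13, against 1.03 FPKM in the virgin, and the thymidine kinase gene Tk1 24.0 FPKM at p13, against 1.42 FPKM in the virgin. Foxm1, an activator of mitotic genes, had 6.99 FPKM in the p13 control, against 0.412 FPKM in the virgin control, and Ccnd1, which encodes cyclin D1, 137 FPKM at p13, against 32.0 FPKM in the virgin.

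From p13 to p18, the stage at which secretion begins, most members were lower as scaled by the authors, but so were most genes. In control glands, all 38 genes were lower at p18 than at p13 as scaled by the authors, and 26 with a common upper quartile, against 80.9% of all genes, and 2 of them, Mcm3 and Mcm4, by at least 1 log2 unit, against 19.1% of all genes. As scaled by the authors, the share past 1 unit was thus below that of all genes. Their scaling gave control medians of -0.85 for replication and -0.44 for mitosis genes, beside -0.46 for all genes. With groups scaled to a common upper quartile or to ubiquitous genes the mitosis median changed sign, to 0.02 and 0.06. With a common sum the medians were -1.31 for replication, -0.92 for mitosis and -0.90 for all genes. Most replication genes were then lower by at least 1 unit, as were 6032 of the 14273 genes. In controls the replication genes therefore lay below the shift of all genes and the mitosis genes close to it. Mcm3 had 10.2 FPKM in the p18 control, against 27.5 FPKM in the p13 control, and Pcna had 72.7 FPKM at p18, against 138 FPKM at p13. Cdk1 had 15.7 FPKM at p18, against 19.9 FPKM at p13, and Cdc20, the activator of the anaphase-promoting complex, 24.1 FPKM at p18, against 28.1 FPKM at p13. The median ratio of p18 to p13 in controls was 0.523 for replication and 0.709 for mitosis genes.

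In Ezh2 KO glands the order of the classes between p18 and p13 was the other way. There, 14 of the 38 genes were lower at p18 by at least 1 log2 unit, against 4.1% of all genes, and the medians were -0.72 for replication and -1.01 for mitosis genes, beside -0.45 for all genes. Kif20a, a kinesin of cytokinesis, had 5.91 FPKM in the p18 Ezh2 KO group, against 15.9 FPKM in the p13 Ezh2 KO group. Cenpe, a kinetochore kinesin gene, had 1.98 FPKM at p18, against 6.48 FPKM at p13, and Cenpf 2.01 FPKM at p18, against 6.01 FPKM at p13. In Ezh1 KO glands, 5 genes were lower at p18 by at least 1 unit, against 12.1% of all genes, with medians of -0.70 for replication and -0.79 for mitosis genes. In Ezh1 het Ezh2 KO glands, 1 gene was, Mki67, against 16% of all genes, and 11 genes were higher at p18 than at p13, against 17.2% of all genes. The medians there were -0.17 for replication and -0.15 for mitosis genes, beside -0.48 for all genes, and scaling to a common upper quartile gave 0.16 and 0.21, with the sign changed. Birc5 in that genotype had 63.7 FPKM at p18, against 42.3 FPKM at p13, and Cdk1 had 26.1 FPKM at p18, against 17.2 FPKM at p13, while Mki67 had 8.86 FPKM at p18, against 19.5 FPKM at p13. Milk protein genes held 30.2% of the summed FPKM in Ezh2 KO at p18 and 14.7% at p13, and 47.4% and 1.66% in controls. In Ezh1 KO they held 42.0% at p18 and 3.0% at p13, and in Ezh1 het Ezh2 KO 41.4% and 7.34%. In controls all 12 skeletal muscle markers were lower at p18, with 59.1 FPKM at p18, against 10691 FPKM at p13, and all 5 erythroid markers, with 54.3 FPKM at p18, against 2063 FPKM at p13. In Ezh2 KO all 5 erythroid markers were higher at p18, with 1448 FPKM at p18, against 346 FPKM at p13. The part of these genes in the stage differences was not tested beyond the rescaled values.

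At p18 the genes were still mostly above the virgin level as scaled by the authors. In controls, 27 of the 38 genes were higher at p18 than in the virgin gland without prolactin by at least 1 log2 unit, against 7.8% of all genes, with medians of 0.65 for replication and 2.64 for mitosis genes beside -0.25 for all genes. In Ezh2 KO glands, 24 were, against 5.35% of all genes, with medians of 0.78 and 1.69, the replication value turning to -0.22 with a common mean of luminal markers.

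In virgin glands without prolactin, both classes stood higher in Ezh2 KO mice than in controls. Of the 38 genes, 35 were higher, against 49.4% of all genes, and 11 of them by at least 1 log2 unit, against 3.35% of all genes. These 11 are the replication genes Mcm5, Mcm6 and Rrm2 and the mitosis genes Plk1, Aurkb, Ccnb1, Ccnb2, Cenpa, Cdc20, Birc5 and Top2a. The medians were 0.45 for replication genes, a median ratio of 1.57, and 0.90 for mitosis genes, a median ratio of 3.35, beside 0 for all genes. Mcm6 differed most on the log2 scale, with 12.0 FPKM in Ezh2 KO, against 3.55 FPKM in control. Top2a had 4.51 FPKM in Ezh2 KO, against 0.989 FPKM in control, and Plk1, the Polo-like mitotic kinase gene, 2.16 FPKM in Ezh2 KO, against 0.531 FPKM in control. Gins1, Gins2 and Ccne1 went the other way by small amounts, such as Gins2 with 7.34 FPKM in Ezh2 KO, against 7.97 FPKM in control. With a pseudocount of 5 in place of 1, the order of the class medians reversed, the replication median minus the mitosis median being 0.0284 in place of -0.45, and none of the 38 genes was higher by 1 unit. Lymphocyte markers moved with this difference: all 14 were higher in Ezh2 KO, their sum being 370 FPKM in Ezh2 KO, against 32.6 FPKM in control. The B cell gene Cd79a had 60.9 FPKM in Ezh2 KO, against 1.63 FPKM in control, and none of the 14 markers was listed at 0 in either. All 12 luminal markers were lower, with sums of 924 FPKM in Ezh2 KO and 1775 FPKM in control. The part of lymphocytes in the result was not tested.

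With prolactin the genotypes stood the other way round as scaled by the authors, but not for most genes with groups rescaled to luminal markers. Of the 38 genes, 32 were lower in Ezh2 KO glands than in control glands after prolactin, and 14 under the luminal scaling, against 47.2% of all genes as scaled by the authors, none by 1 log2 unit, against 2.71% of all genes. All 21 mitosis genes were lower as scaled by the authors, and 13 of them under the luminal scaling, with medians of -0.35 and -0.06 and a median ratio of 0.594 as scaled by the authors. For replication genes the median was -0.03, and it changed sign under 4 of the 6 rescalings, to between 0.02 and 0.44. Ccnb1 had 0.775 FPKM in Ezh2 KO, against 1.37 FPKM in control, both after prolactin, and Mki67 had 0.680 FPKM in Ezh2 KO, against 1.63 FPKM in control. Bub1b, which encodes BUBR1, had 0.612 FPKM in Ezh2 KO, against 1.55 FPKM in control. The lymphocyte markers again stood with the higher group, at 20.9 FPKM in Ezh2 KO, against 309 FPKM in control, and luminal markers summed to 1200 and 1866 FPKM in the same order.

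Within a genotype, the difference between the gland taken after prolactin and the gland taken before it also ran in opposite directions. In control mice, 34 of the 38 genes were higher after prolactin than before it, against 49% of all genes, none by 1 log2 unit, against 4.76% of all genes. The medians in controls were 0.34 for replication and 0.51 for mitosis genes, a median ratio of 2.16 for the mitosis genes, and with a pseudocount of 5 the order of the classes reversed by 0.0328. Birc5 had 4.71 FPKM in controls after prolactin, against 2.16 FPKM before it, and Rrm2 2.80 FPKM after, against 1.04 FPKM before. In Ezh2 KO mice, 37 of the 38 genes were lower after prolactin than before it, against 48.6% of all genes, and 7 by at least 1 log2 unit, against 4.08% of all genes. Those 7 are Mcm5, Mcm6, Rrm2, Top2a, Birc5, Cenpa and Plk1. The exception was Cdc45, with 3.97 FPKM after prolactin and 3.15 FPKM before it in Ezh2 KO mice. The medians in Ezh2 KO mice were -0.30 for replication and -0.77 for mitosis genes, a median ratio of 0.389 for the mitosis genes. Lymphocyte markers had sums of 309 FPKM after and 32.6 FPKM before prolactin in controls, and 20.9 after and 370 FPKM before in Ezh2 KO mice, so in each of the 4 virgin comparisons they were higher where the mitosis genes were higher. Their part in the result was not tested. Myc, a growth regulator on the G1 list, was higher after prolactin in both genotypes, with 49.1 FPKM after and 13.6 FPKM before in controls, and 39.2 FPKM after and 13.7 FPKM before in Ezh2 KO mice.

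**Figure D4:**
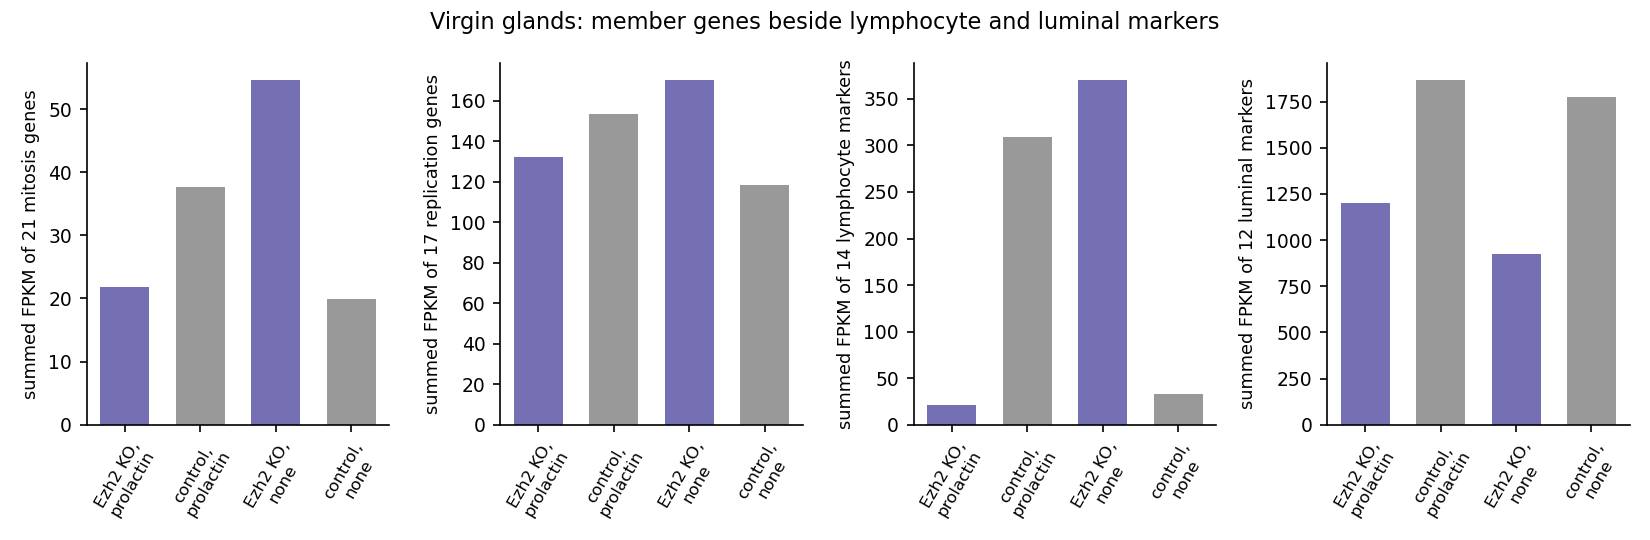
Summed FPKM of the 21 mitosis genes, the 17 replication genes, 14 lymphocyte markers and 12 luminal markers in the 4 virgin groups, with bars starting at 0. Mitosis genes sum to 54.6 FPKM in Ezh2 KO and 19.9 FPKM in control glands without prolactin, and to 21.8 and 37.6 FPKM with prolactin. The lymphocyte sums have the same order of groups at the top, 370 FPKM in Ezh2 KO without and 309 FPKM in control with prolactin.

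At p13, most of the genes were at their highest as scaled by the authors. With that scaling the mitosis genes stood higher in Ezh2 KO glands than in control glands. They stood lower, with a median of -0.14, when groups were rescaled to a common mean of luminal markers. The replication genes were nearer to level. Of the 38 genes, 36 were higher in Ezh2 KO, against 51.4% of all genes, the others being Ccne1 and Ccne2. None was higher by 1 log2 unit, against 2.65% of all genes, and 14 were higher by at least 0.5, against 9.69% of all genes, all of them mitosis genes. The median was 0.56 for mitosis genes, a median ratio of 1.5, and 0.14 for replication genes, a median ratio of 1.11, beside 0.01 for all genes. Under the luminal scaling the replication median was -0.53 and 36 of the 38 genes were lower in Ezh2 KO, beside a median of -0.59 over all genes. The difference between the class medians was -0.42, and -0.39 under that scaling. A rescaling shifts both classes nearly alike, so it is no test of this difference. Luminal markers, of an epithelial compartment in which Cre is expected to act, summed to 2756 FPKM in Ezh2 KO, against 1599 FPKM in control, with 12 of 12 higher and none listed at 0. Skeletal muscle markers took 0.00411% of the summed FPKM in Ezh2 KO, against 1.59% in control, and milk protein genes 14.7% in Ezh2 KO, against 1.66% in control. The part of tissue makeup in the result was not tested.

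The member furthest apart was Ttk, with 8.34 FPKM in Ezh2 KO, against 4.38 FPKM in control, a difference of 0.80. Cenpe had 6.48 FPKM in Ezh2 KO, against 3.70 FPKM in control, and Cenpf 6.01 FPKM in Ezh2 KO, against 3.66 FPKM in control. Mki67 had 27.8 FPKM in Ezh2 KO, against 17.1 FPKM in control, and Kif20a 15.9 FPKM in Ezh2 KO, against 9.82 FPKM in control. The cyclin B1 gene Ccnb1 had 28.6 FPKM in Ezh2 KO, against 19.1 FPKM in control, and its kinase Cdk1 had 26.9 FPKM in Ezh2 KO, against 19.9 FPKM in control. Among the replication genes Gins1 differed most, with 13.0 FPKM in Ezh2 KO, against 9.23 FPKM in control. The MCM loader Cdc6 had 2.65 FPKM in Ezh2 KO, against 2.31 FPKM in control, Mcm3 28.2 FPKM in Ezh2 KO, against 27.5 FPKM in control and Pcna 143 FPKM in Ezh2 KO, against 138 FPKM in control. Of the 71 other mitosis genes, 68 were higher in Ezh2 KO, against 51.4% of all genes, with a median of 0.42, such as the kinesin gene Kif20b with 6.01 FPKM, against 2.87 FPKM in control. Of the 50 other replication genes, 41 were higher, with a median of 0.17, such as the polymerase delta subunit gene Pold3 with 25.2 FPKM, against 14.4 FPKM in control. On the list of 27 G1 regulators, with a median of 0.14, the cyclin D2 gene Ccnd2 was lower, with 24.7 FPKM in Ezh2 KO, against 74.1 FPKM in control.

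In the other genotypes at p13 the mitosis medians lay closer to 0 than in Ezh2 KO as scaled by the authors, while the replication median of Ezh1 het Ezh2 KO lay further from it. In Ezh1 KO glands, 26 of the 38 genes were higher than in control, against 46.8% of all genes, with differences from -0.24 for Rrm1 to 0.42 for Mki67. The mitosis median was 0.15, with 20 of 21 higher, and turned to -0.03 with a common mean of luminal markers. The replication median was -0.04 and turned above 0 under the other 5 rescalings, to between 0.01 and 0.18. Mki67 had 23.3 FPKM in Ezh1 KO, against 17.1 FPKM in control, and Rrm1 had 28.7 FPKM in Ezh1 KO, against 34.1 FPKM in control. All 12 skeletal muscle markers were lower in Ezh1 KO, with a sum of 2618 FPKM in Ezh1 KO, against 10691 FPKM in control, and 11 of 13 white adipocyte markers were lower. Erythroid markers summed to 455 FPKM in Ezh1 KO, where 2 of the 5 were listed at 0, against 2063 FPKM in control. In Ezh1 het Ezh2 KO glands, 33 of the 38 were lower than in control as scaled by the authors, against 50.8% of all genes. Scaling without milk proteins left 22 of them lower, and scaling to ubiquitous genes 18. The replication median was -0.19, and under these scalings -0.08 and -0.00637 in that order. The mitosis median was -0.11, and it turned to 0.00496 and 0.08. Rrm1 had 22.8 FPKM in Ezh1 het Ezh2 KO, against 34.1 FPKM in control, a difference of -0.56. All 14 lymphocyte markers were higher in Ezh1 het Ezh2 KO, with a sum of 112 FPKM in Ezh1 het Ezh2 KO, against 15.1 FPKM in control. All 12 skeletal muscle markers were lower, with 51.5 FPKM in Ezh1 het Ezh2 KO, against 10691 FPKM in control, as were 9 of 10 basal and myoepithelial markers, with 741 FPKM in Ezh1 het Ezh2 KO, against 1208 FPKM in control, while 14 of 15 milk protein genes were higher. No lymphocyte, muscle or basal marker was listed at 0 in either group, and the part of these tissues in the result was not tested. These comparisons share the control group.

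Set directly against Ezh2 KO with both Ezh1 alleles, the Ezh1 het Ezh2 KO group was lower at p13 for 37 of the 38 genes, against 49.8% of all genes, and for 17 with a common mean of luminal markers. None was lower by 1 log2 unit, against 0.666% of all genes, and 20 were lower by at least 0.5, against 4.75% of all genes. The mitosis median was -0.65, and the replication median was -0.35, which turned to 0.28 with a common mean of luminal markers. Nusap1, a spindle microtubule protein gene, had 14.1 FPKM in Ezh1 het Ezh2 KO, against 28.6 FPKM in Ezh2 KO, and Kif11, the bipolar spindle kinesin gene, 9.16 FPKM in Ezh1 het Ezh2 KO, against 17.8 FPKM in Ezh2 KO. Ccna2 had 31.9 FPKM in Ezh1 het Ezh2 KO, against 55.7 FPKM in Ezh2 KO. The exception was Ccne1, with 5.15 FPKM in Ezh1 het Ezh2 KO, against 4.27 FPKM in Ezh2 KO. Luminal markers summed to 1616 FPKM in Ezh1 het Ezh2 KO, against 2756 FPKM in Ezh2 KO, and lymphocyte markers to 112 FPKM in Ezh1 het Ezh2 KO, against 25.9 FPKM in Ezh2 KO, and their part in the result was not tested. Ezh2 KO against Ezh1 KO, added after the values were seen, gave a median of 0.27 over the 38 genes at p13, and -0.21 with a common mean of luminal markers.

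**Figure D5:**
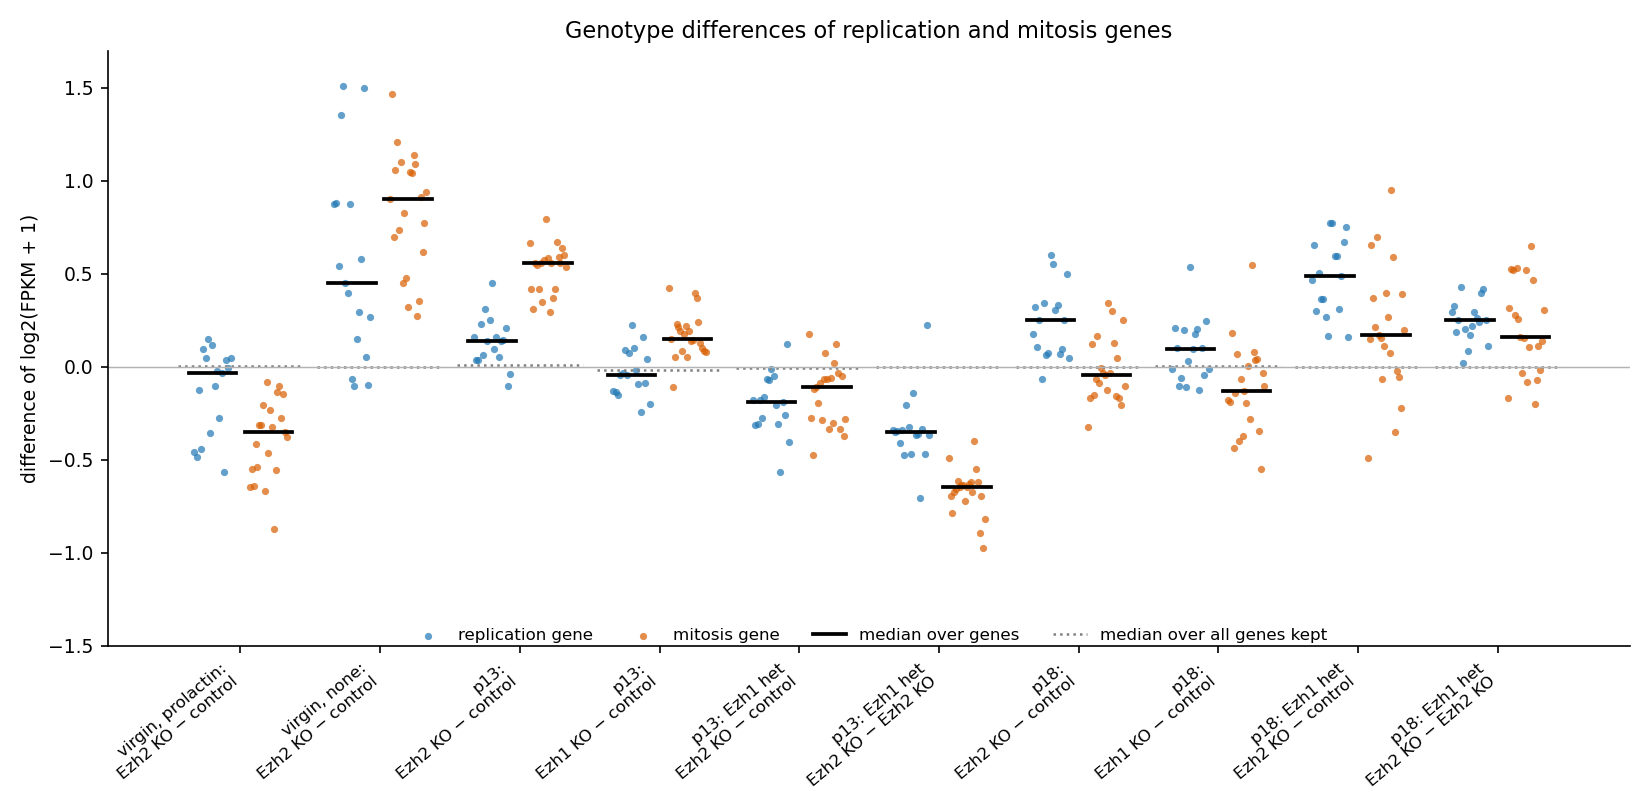
Differences of log2(FPKM + 1) in 10 genotype comparisons for each replication and mitosis gene, with bars at the class medians and dotted lines at the median of all genes. In Ezh2 KO minus control the mitosis median is 0.90 in virgin glands without prolactin, 0.56 at p13 and -0.04 at p18. The p13 value turns to -0.14 with a common mean of luminal markers, and the p18 value to 0.21 with a common sum.

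At p18 the median difference from control was higher for replication than for mitosis genes in each altered genotype. In Ezh2 KO glands, 16 of 17 replication genes and 7 of 21 mitosis genes were higher than in control, against 48.8% of all genes, with medians of 0.25 and -0.04, the mitosis value turning to 0.21 with groups scaled to a common sum. Gins1 had 8.31 FPKM in Ezh2 KO, against 5.14 FPKM in control, Gins2 14.4 FPKM in Ezh2 KO, against 9.50 FPKM in control and Ccne1 3.58 FPKM in Ezh2 KO, against 2.24 FPKM in control, and these 3 were the genes higher by at least 0.5 log2 units, against 8.58% of all genes. Mki67 was at the other end, with 10.1 FPKM in Ezh2 KO, against 12.8 FPKM in control. In Ezh1 KO glands the medians were 0.10 for replication genes, which turned negative with scaling without milk proteins, to -0.09, or to luminal markers, to -0.07, and -0.13 for mitosis genes. Birc5 had 47.9 FPKM in Ezh1 KO, against 32.5 FPKM in control, while Kif20a had 4.44 FPKM in Ezh1 KO, against 6.96 FPKM in control. Markers of other tissue moved with both comparisons. All 5 erythroid markers were higher, with sums of 1448 FPKM in Ezh2 KO, 355 FPKM in Ezh1 KO and 54.3 FPKM in control, as were all 13 white adipocyte markers, with 16978 FPKM in Ezh2 KO, 12618 FPKM in Ezh1 KO and 6952 FPKM in control. All 15 milk protein genes were lower in Ezh2 KO and 13 of 15 in Ezh1 KO than in control. Skeletal muscle markers summed to 25.1 FPKM in Ezh2 KO and 190 FPKM in Ezh1 KO, with 11 of 12 lower and 12 of 12 higher than in control, where they summed to 59.1 FPKM. None of these markers was listed at 0 in the 3 groups, and their part in the results was not tested.

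The Ezh1 het Ezh2 KO group had the widest difference from control at p18 in its median over the 38 genes, 0.34, beside 0.07 in Ezh2 KO and -0.02 in Ezh1 KO, but scaling without milk proteins gave -0.00759. As scaled by the authors, all 17 replication genes were higher in it than in control and 15 of 21 mitosis genes, against 49% of all genes, and 12 of the 38 by at least 0.5 log2 units, against 10.2% of all genes. The medians were 0.49 for replication genes, a median ratio of 1.44, and 0.17 for mitosis genes. The replication median was above 0 under the 6 rescalings but moved to 0.24 with ubiquitous genes and to 0.13 without milk proteins, where 11 of the 17 genes were higher, while the mitosis median turned negative under 4 of them, lowest at -0.16 without milk proteins. Pcna had 111 FPKM in Ezh1 het Ezh2 KO, against 72.7 FPKM in control, Tyms 9.63 FPKM in Ezh1 het Ezh2 KO, against 5.68 FPKM in control and Gins2 17.0 FPKM in Ezh1 het Ezh2 KO, against 9.50 FPKM in control. The mitosis genes were split. Birc5 had 63.7 FPKM in Ezh1 het Ezh2 KO, against 32.5 FPKM in control, Cdk1 26.1 FPKM in Ezh1 het Ezh2 KO, against 15.7 FPKM in control and Cenpa, the centromeric histone gene, 24.9 FPKM in Ezh1 het Ezh2 KO, against 16.2 FPKM in control. Mki67 instead had 8.86 FPKM in Ezh1 het Ezh2 KO, against 12.8 FPKM in control, Cenpe 1.60 FPKM in Ezh1 het Ezh2 KO, against 2.32 FPKM in control and Kif20a 5.83 FPKM in Ezh1 het Ezh2 KO, against 6.96 FPKM in control. Of the other replication genes, Dut, which encodes the dUTPase, had 17.7 FPKM in Ezh1 het Ezh2 KO, against 7.95 FPKM in control. All 14 lymphocyte markers were higher, with a sum of 176 FPKM in Ezh1 het Ezh2 KO, against 37.7 FPKM in control, and all 12 skeletal muscle markers were lower, with 17.8 FPKM in Ezh1 het Ezh2 KO, against 59.1 FPKM in control, and their part in the result was not tested. Against Ezh2 KO at p18, 32 of the 38 genes were higher in Ezh1 het Ezh2 KO, against 48.8% of all genes, with medians of 0.25 for replication and 0.16 for mitosis genes, both of which turned negative when scaled to a common sum, at -0.21 and -0.26. Erythroid markers summed to 71.4 FPKM in Ezh1 het Ezh2 KO, against 1448 FPKM in Ezh2 KO, and lymphocyte markers to 176 FPKM in Ezh1 het Ezh2 KO, against 24.2 FPKM in Ezh2 KO.

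Setting the classes side by side within a comparison does not depend on the scaling between groups when FPKM ratios are used, because both classes share it. By their median ratios, the mitosis genes stood further from 1 than the replication genes in both comparisons of p13 with the virgin, at 10.8 and 3.10 in Ezh2 KO and 27.1 and 4.47 in controls. The mitosis ratios there rest on low virgin values. In Ezh2 KO glands the classes did not overlap: the lowest mitosis ratio was 5.29 and the highest replication ratio was 4.98. At p13 in Ezh2 KO over control, the mitosis ratios ran from 1.24 to 1.90 and the replication ratios from 0.919 to 1.41. At p18 the classes stood in the other order in all 3 comparisons with control, with median ratios for replication and mitosis of 1.21 and 0.962 in Ezh2 KO, 1.08 and 0.903 in Ezh1 KO, and 1.44 and 1.16 in Ezh1 het Ezh2 KO. These 3 share the control group, whose own replication median lay below its mitosis median at p18, at 9.50 and 11.5 FPKM.

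Across the 12 groups the mitosis genes also followed one another more closely. The Pearson correlation of log2(FPKM + 1) had a median of 0.986 over the 210 pairs of mitosis genes, 0.930 over the 136 pairs of replication genes and 0.934 over the 357 pairs between classes. The groups share stage, scaling and tissue makeup, so these values describe the course over 12 pooled values. The mitosis genes also ranged more widely, with a median ratio of highest to lowest FPKM of 39.8, against 5.03 for replication genes. A wider shared range can raise a correlation by itself, so the values do not compare how tightly the classes are controlled. Of the 17 replication genes, 6 had a higher correlation with the mitosis mean than with the mean of their own class, namely Rrm2, with 0.989 for the mitosis and 0.961 for the replication mean, Mcm5, Mcm6, Cdt1, Tyms and Gins1. The gap was widest for Rrm2. It was small for the others, such as 0.954 and 0.953 for Gins1 and 0.9380 and 0.9375 for Tyms. Gaps of this size over 12 pooled values do not set these genes apart from their class. Of the 21 mitosis genes, Cenpf followed the replication mean more closely, with 0.976 for the replication and 0.967 for the mitosis mean. Other genes were set beside the class means in the same way, namely the 10600 typed as protein-coding by RefSeq that reached 5 FPKM in a group. Those most like the mitosis mean were Kif22, Prc1, Ncapg, Kif2c, Ckap2l, Tacc3, Racgap1 and 4930427A07Rik, at 0.997 to 0.999. Those most like the replication mean were Hells, Lig1, Trip13, Dtl, Uhrf1, Chaf1a, Cep55 and Smc2, at 0.990 to 0.995. Both class means were highest in the p13 Ezh2 KO group, so genes picked for likeness to them tend to be highest there too. All 16 were, which the choice nearly fixed. Prc1, which bundles the microtubules of the central spindle, had 26.8 FPKM there, and the DNA ligase gene Lig1 had 26.1 FPKM. Pcna, Tyms, Ccnb1 and Ccnb2 have RefSeq pseudogenes of the same name, and their values are uncertain if reads were shared with those copies.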

How the data were processed

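RNA of whole mammary glands was sequenced in 31 libraries of 12 groups, 5 of 2 and 7 of 3 libraries. The deposited table holds 1 FPKM value per gene and group, made by the authors. Their way of combining a group's libraries is not given in the sources here. Per the submitters' processing notes, which state no roles or versions, the tools were HOMER, Cuffdiff, Cufflinks, TopHat, Bowtie, BWA, FastQC, Trim Galore and CASAVA, and the build was mm9. Another 9 libraries, of chromatin, were not analysed here.

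Samples were grouped by their labels. The planned limma model could not be fitted to pooled values, so differences of log2(FPKM + 1) and FPKM ratios are descriptions. Genes with at least 1 FPKM in 1 group were kept, 14273 of 22552, and differences of 1 log2 unit counted, with 0.5 added later. No per-sample column was left unused. FPKM by definition adjusts for transcript length and for the total. Under a plain scaling to the total, an abundant transcript such as a milk protein would lower the others. Whether it did so here is unknown, because the authors' scaling of the groups is not given.

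The members and lists were chosen with earlier results of these data known. The rule for named genes took all 38 members, Ezh1 and Ezh2. Of each related list it took up to 3 members with the largest differences among those with 5 FPKM in a compared group. It also took the 8 other genes, protein-coding in RefSeq and with 5 FPKM in a group, most like each class mean. Of 73 listed other mitosis genes, Bora and Ska3 have no row in the table. Marker genes of other tissues are given by list beside the main comparisons.

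Alternatives were pseudocounts of 0.1 and 5, no filter and a filter of 5 FPKM, 5 rescalings of the groups, a threshold of 2 and, chosen after seeing the data, a rescaling without milk, muscle and erythroid genes, the threshold of 0.5 and Ezh2 KO against Ezh1 KO. Python 3.11.15, pandas 2.3.3, NumPy 2.4.6 and matplotlib 3.10.9 were used, and the functions were tested on simulated data. Promoter sequences are RefSeq's, on GRCm38.p6.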

Additional observations from a re-analysis of the deposited data

How the results depend on the processing

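Pooled values without replicates and of unknown depth limit every result, so no value has an error. Over 22 comparisons and 10 alternatives, the median difference of the 38 genes kept its direction and moved by less than the spread between the genes (1 SD) in 186 cases, moved further in 22 and changed direction in 12, and the replication median minus the mitosis median did so in 208, 2 and 10 cases. Dropping the filter could not move either value, because all 38 genes already passed it. A rescaling shifts both classes nearly alike, so it could hardly move the replication median minus the mitosis median. Many of the unchanged cases were thus fixed in advance and do not measure stability. Where a cause is not plain from the rescaling itself, the cause was not tested. No paired analysis was possible because the table's columns are pooled groups without replicate numbers, and for the same reason no replicate could be left out.

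With groups scaled to luminal markers, the median of all genes lay between -1.38 in Ezh2 KO at p18 against virgin and 0.83 in virgin Ezh2 KO against control without prolactin. Under this scaling the median of the 38 genes was -0.31 for Ezh2 KO, -0.0857 for Ezh1 KO, both against control, 0.0122 for Ezh1 het Ezh2 KO against Ezh2 KO and -0.21 for Ezh2 KO against Ezh1 KO at p13, and 0.28 for the last pair at p18. In virgin glands Ezh2 KO against control gave 1.55 without and 0.0493 with prolactin, and prolactin against none in Ezh2 KO -1.07. Within Ezh2 KO it gave 1.03 for p13 against virgin, 0.46 for p18 against virgin and -0.39 for p18 against p13.

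Scaling to ubiquitous genes gave 0.31 for Ezh1 KO and 0.00322 for Ezh1 het Ezh2 KO against control at p13, and for p18 against p13 -0.56 in Ezh2 KO, -0.53 in Ezh1 KO and -0.17 in control. A common upper quartile gave -0.43 in Ezh2 KO, -0.35 in Ezh1 KO, 0.20 in Ezh1 het Ezh2 KO and -0.21 in control for p18 against p13. A common sum gave -1.36 in Ezh1 KO, -0.82 in Ezh1 het Ezh2 KO and -1.12 in control for p18 against p13. At p18 the common sum gave 0.36 for Ezh2 KO against control, -0.25 for Ezh1 het Ezh2 KO against Ezh2 KO and 0.43 for Ezh2 KO against Ezh1 KO, the last being 0.0965 at p13. Without milk proteins, and without milk, muscle and erythroid genes, the values were -0.00759 and -0.00771 for Ezh1 het Ezh2 KO against control at p18, -0.0265 and -0.0300 for it against Ezh2 KO, and -0.35 and -0.37 for p18 against p13 in control. A pseudocount of 0.1 gave 3.65 for p13 against virgin in control.

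For the replication median minus the mitosis median, a pseudocount of 5 gave 0.0284 for virgin Ezh2 KO against control without prolactin and 0.0328 for prolactin against none in control. A pseudocount of 0.1 gave 0.64 for Ezh2 KO against control with prolactin, 0.89 for prolactin against none in Ezh2 KO and -0.00986 for p18 against p13 in Ezh1 KO, where a common upper quartile gave -0.000642. In Ezh1 het Ezh2 KO, p18 against p13, it was -0.0212 as reported and 0.00988 with a pseudocount of 5, 0.0339 with the filter of 5 FPKM, 0.0496 with a common sum, 0.0216 without milk proteins, 0.0221 without milk, muscle and erythroid genes and 0.0204 with luminal markers.

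Counts of genes past 1 log2 unit also moved. Virgin Ezh2 KO against control had 11, and 23 and 0 with pseudocounts of 0.1 and 5. Prolactin against none in Ezh2 KO had 7, and 0 to 21 over the alternatives at that threshold. For p18 against p13, Ezh2 KO had 14 and as few as 0, Ezh1 KO 5 and 0 to 35, and control 2 and 0 to 24. For p18 against virgin, Ezh2 KO had 24 and as few as 9, and for p13 against virgin 34 and as few as 19.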
